A study of Homo sapiens with 15 samples.

Results

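The genes described here encode the subunits, activators, inhibitor and assembly factors of the human proteasome. They were chosen as 47 gene symbols, which matched 49 of the 57820 gene identifiers in the files. The proteasome is the protease complex that degrades ubiquitin-tagged proteins. Its 20S core is a barrel of alpha rings, which gate the entrance, and beta rings, which hold the proteolytic sites. A 19S cap recognizes the ubiquitin chain, unfolds the substrate with an ATPase ring and feeds it into the core. In cells of the immune system and under interferon, PSMB8, PSMB9 and PSMB10 can replace PSMB5, PSMB6 and PSMB7 as the catalytic beta subunits, giving the immunoproteasome, whose peptides are favoured for display on MHC class I. RNF5 is a membrane-bound RING ubiquitin ligase of endoplasmic-reticulum-associated degradation, the route that hands misfolded membrane and secretory proteins to the proteasome. The question addressed here was how the transcripts of the proteasome itself stood after RNF5 knockdown.

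The 47 symbols comprised 7 of the 20S alpha ring, 7 constitutive and 3 immunoproteasome beta subunits, 6 ATPases and 11 non-ATPase subunits of the 19S cap, 3 chaperones of 19S assembly, 4 activators, 1 inhibitor and 5 factors of 20S assembly. A second identifier of PSMA1 and of PSMA2 was listed at 0 in every library, and the other 47 were above 0 in every line. RNA came from 15 libraries of 3 human acute myeloid leukemia lines, HL-60, MOLM-13 and U937, which carried either the vector-only control pLKO or an shRNA against RNF5 (shRNF5). There were 3 pLKO and 2 shRNF5 libraries of MOLM-13, 2 of each of U937 and 3 of each of HL-60. The sample labels put the harvest at day 7 after knockdown and the series design at day 5, and neither says which hairpin was sequenced or whether replicates were separate transductions, so p-values measure the spread between these libraries only. All cells were established lines grown in bulk, and a smaller share of cells expressing a gene cannot be told apart from less RNA per cell.

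Values are normalized read counts, scaled by the authors per library and within each line, so levels were tested only within a line. The sum of the values of a library ran from 15988450 to 25835131, and the spacing of low values gave an estimate of 9.7 to 63.8 M counted reads per library. The fit of the spacing, a correlation, was 0.949 for the lowest estimate and 0.515 for the highest, MOLM-13 shRNF5 replicate 1. The upper end is thus less certain. RNF5 fell in every line, with a log2 fold change of -3.77 (MOLM-13), -3.64 (U937) and -3.25 (HL-60) and no overlap between pLKO and shRNF5 libraries. Of 8 myeloid markers, 7 were above 0 in each line, CD68 being listed at 0 throughout. Of 7 markers of other cells, none was above 0 in MOLM-13 or HL-60, and 2 were above 0 in U937, of which COL1A1 was at 15 to 234. Fold changes below are differences of log2(normalized read count + 1), shRNF5 minus pLKO. A gene was called at a limma adjusted p-value (Benjamini-Hochberg over all genes of the line) under 0.1 and a log2 fold change over 0.4 in size.

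The proteasome genes called in MOLM-13 fell, those called in U937 rose, and HL-60 had calls in both directions. In MOLM-13, 2 of the 47 proteasome genes fell and 0 rose, where 1.01% of the 13026 genes tested fell and 1.03% rose, 2.04% in all. In U937, 10 rose and 0 fell, where 6.92% of 13165 genes rose and 8.74% fell, 15.7% in all. In HL-60, 3 rose and 4 fell, where 13.6% of 12570 genes rose and 12.3% fell, 25.9% in all. An unadjusted p under 0.05 was reached by 12 of the 47 in MOLM-13 (17% of all genes), 19 in U937 (27.1%) and 13 in HL-60 (35%). Altogether 30 proteasome genes were called in no line, 15 in 1 line and 2 in 2 lines, and those 2, PSMD8 and PSME3, rose in U937 and fell in HL-60. No gene was called in the same direction in 2 lines. The median log2 fold change over the 47 genes was -0.21 for MOLM-13, 0.46 for U937 and 0.09 for HL-60, whereas the median of all genes tested was 0.01, 0 and 0. The spread of that median between replicate libraries was 0.06, 0.2 and 0.1. The fold change was positive for 7 of 47 genes with MOLM-13, 37 with U937 and 26 with HL-60, against 50.8%, 50.3% and 50.2% of all genes.

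**Figure D1:**
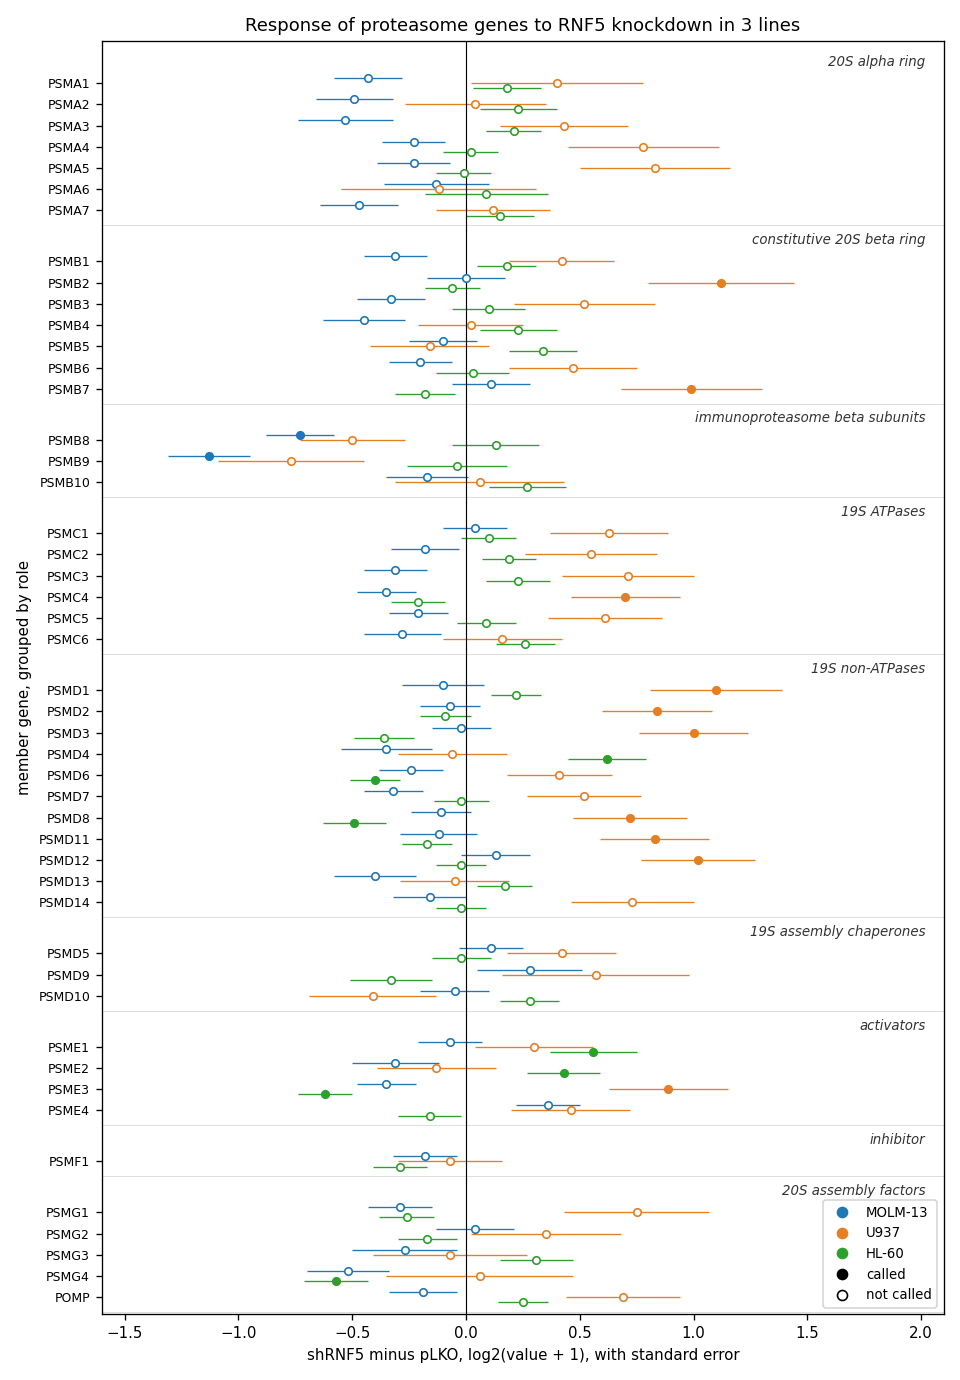
Log2 fold change of 47 proteasome genes (x axis, shRNF5 minus pLKO, log2(value + 1)) in MOLM-13, U937 and HL-60, grouped by role on the y axis. Points are estimates, bars their standard errors, and filled points are called genes. PSMB8 and PSMB9 are the filled points on the left in MOLM-13, and the 10 filled U937 points lie from 0.7 (PSMC4) upwards.

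Transcript length moved with these responses. The reference transcript had a median of 1494 bases for the proteasome genes and 3049 for all genes tested in MOLM-13. Across proteasome genes, log2 fold change and length had a Spearman correlation of 0.454 (MOLM-13), 0.539 (U937) and -0.362 (HL-60; n = 46 genes, which share libraries and are not replicates), and across all genes 0.277, 0.155 and -0.216. With each library corrected for transcript length, the median of the 47 genes became -0.14, 0.57 and 0.01 in the same order of lines. Then 2, 13 and 7 genes were called, and the share of all genes called with this correction is not given here. The library kit is a 3′-end kit by the labels and a strand-specific poly(A) kit by the methods, and which of them made these libraries could not be settled.

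The immunoproteasome subunits are set apart from the other 44 genes. PSMB8 and PSMB9 fell in MOLM-13, PSMB9 to 0.458 times its control level, and had no call in U937 or HL-60. PSMB10 was called in no line. PSMB9 (chromosome 6, 32811913 to 32827628, forward strand, GRCh37), which replaces PSMB6, was at 633, 497 and 579 in the MOLM-13 pLKO libraries and at 262 and 256 with shRNF5. Both shRNF5 libraries thus lay far below the lowest control (log2 fold change -1.13 ± 0.18, SE; limma adjusted p = 0.0622). PSMB8 (chromosome 6, 32808494 to 32812456, reverse strand), which replaces PSMB5, was at 3788, 3260 and 2969 with pLKO and at 1952 and 2056 with shRNF5. Its groups did not overlap either, and its fold was 0.603 (log2 fold change -0.73 ± 0.15, SE; limma adjusted p = 0.0853). PSMB10 (chromosome 16, 67968409 to 67970767, reverse strand), which replaces PSMB7, was at 671, 545 and 510 with pLKO and 529 and 485 with shRNF5, so the groups overlapped (log2 fold change -0.17, limma adjusted p = 0.661). The pair of calls in MOLM-13 was kept without pLKO replicate 1 but lost on leaving out pLKO replicate 2, pLKO replicate 3 or either shRNF5 library, when the fold change of PSMB9 ran from -1.22 to -1.05 and that of PSMB8 from -0.81 to -0.63 over all 5 omissions. It was also lost without the mean-variance trend (adjusted p = 0.104 and 0.186).

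In U937 the same subunits were lower in both shRNF5 libraries, without passing the test. PSMB9 was at 335 and 304 with pLKO and 188 and 186 with shRNF5 (log2 fold change -0.77, 95% interval -1.47 to -0.07, limma adjusted p = 0.151). PSMB8 was at 2160 and 2095 against 1514 and 1488 (log2 fold change -0.5, interval -1.02 to 0.01, adjusted p = 0.192). For these genes, the U937 libraries of each construct lay close together and the constructs did not overlap. PSMB10 was at 133 and 120 against 128 and 135, with the constructs overlapping. In HL-60 the groups overlapped for PSMB8 (934, 1291 and 1212 with pLKO; 1095, 1041 and 1677 with shRNF5) and for PSMB9 (186, 271 and 258; 211, 188 and 304). The HL-60 intervals of the log2 fold change were -0.3 to 0.55 for PSMB8 and -0.52 to 0.45 for PSMB9. PSMB10 was at 185, 217 and 195 with pLKO and at 223, 220 and 281 with shRNF5, so every shRNF5 library was above every control, without a call (log2 fold change 0.27, adjusted p = 0.277). The size of the PSMB8 and PSMB9 responses differed between MOLM-13 and HL-60, which is taken up with the other differences between lines.

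**Figure D2:**
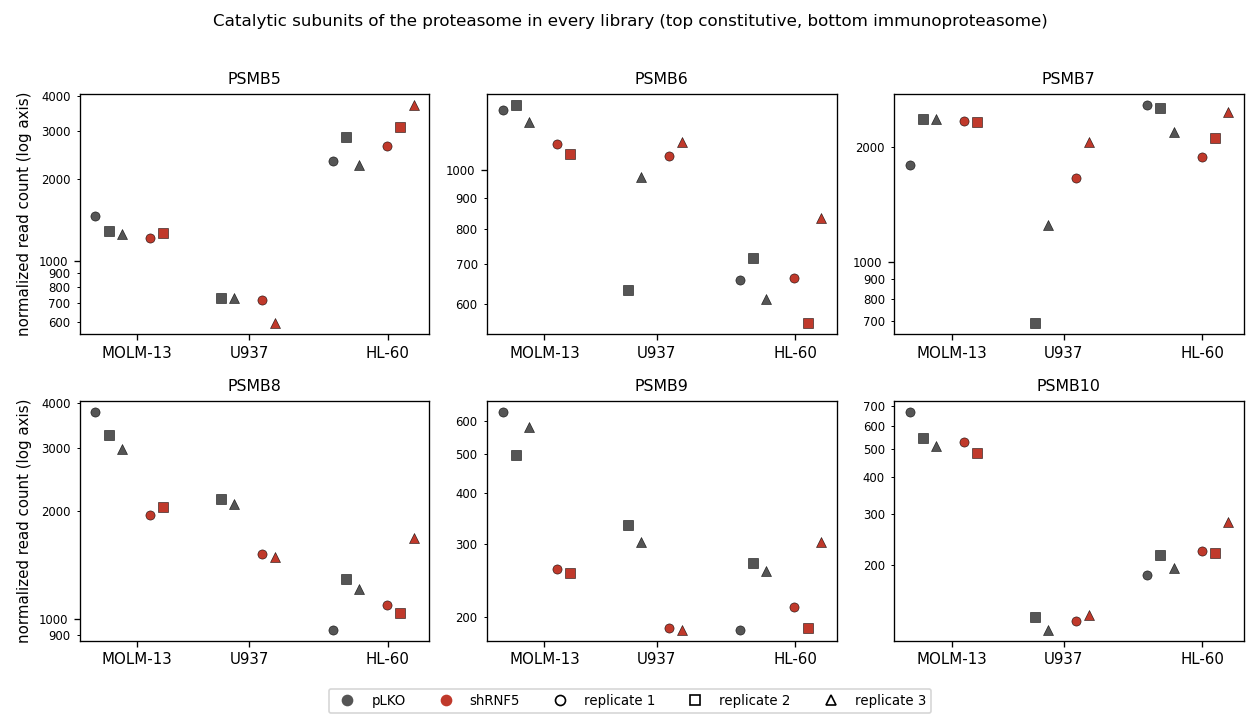
Normalized read count (log y axis) of the constitutive catalytic subunits PSMB5, PSMB6 and PSMB7 and of PSMB8, PSMB9 and PSMB10 in every library of MOLM-13, U937 and HL-60, pLKO in grey and shRNF5 in red. Marker shape gives the replicate number. In MOLM-13, PSMB9 drops from 497 to 633 in the controls to 256 and 262 with shRNF5.

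The constitutive partners PSMB5 and PSMB6 were called in no line, and PSMB7 only in U937, where it rose. PSMB5, the chymotrypsin-like subunit and main target of bortezomib, was at 1457, 1284 and 1258 in MOLM-13 pLKO and 1210 and 1271 with shRNF5. It was at 731 and 733 against 720 and 593 in U937 and at 2329, 2844 and 2245 against 2641, 3097 and 3723 in HL-60. In that line the lowest shRNF5 value lay between the controls, so the groups overlapped. PSMB6, the caspase-like subunit, was at 1258, 1284 and 1204 against 1104 and 1065 in MOLM-13, at 633 and 975 against 1057 and 1116 in U937, and at 657, 715 and 612 against 662, 558 and 835 in HL-60. PSMB7, the trypsin-like subunit, was at 1793, 2377 and 2372 against 2343 and 2332 in MOLM-13 and at 2582, 2535 and 2187 against 1889, 2119 and 2476 in HL-60. Groups overlapped in both of these lines, and the U937 values are given with the other U937 calls.

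The ratio of each immunoproteasome subunit to the subunit it replaces, taken within a library, does not depend on the library's scaling. It is a ratio of normalized read counts and not of molecules, since the transcripts differ in length. In MOLM-13, PSMB8 over PSMB5 was 2.6, 2.54 and 2.36 with pLKO and 1.61 and 1.62 with shRNF5. The controls were thus all above the knockdown libraries, with a fold of 0.647 between the group means of the log2 ratio. PSMB9 over PSMB6 was 0.503, 0.387 and 0.481 in MOLM-13 pLKO and 0.237 and 0.24 with shRNF5, a fold of 0.526. In U937 it was 0.529 and 0.312 against 0.178 and 0.167, a fold of 0.424. The U937 PSMB8 over PSMB5 ratio was 2.96 and 2.86 against 2.1 and 2.51, a fold of 0.79. Both ratios therefore lay lower in every shRNF5 library of these lines. PSMB10 over PSMB7 was lower in both shRNF5 libraries of U937 (0.192 and 0.096 with pLKO, 0.077 and 0.066 with shRNF5) and higher in all 3 of HL-60 (0.072, 0.086 and 0.089 against 0.118, 0.104 and 0.113). In MOLM-13 it overlapped between constructs, as did the other ratios in HL-60. Over the 9 two-sided exact permutation tests, the Benjamini-Hochberg adjusted p was 0.45 for 8 ratios and 0.8 for PSMB9 over PSMB6 in HL-60. The smallest p these group sizes allow is 0.2 (MOLM-13), 0.333 (U937) and 0.1 (HL-60), so no ratio could pass at 0.05.

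**Figure D3:**
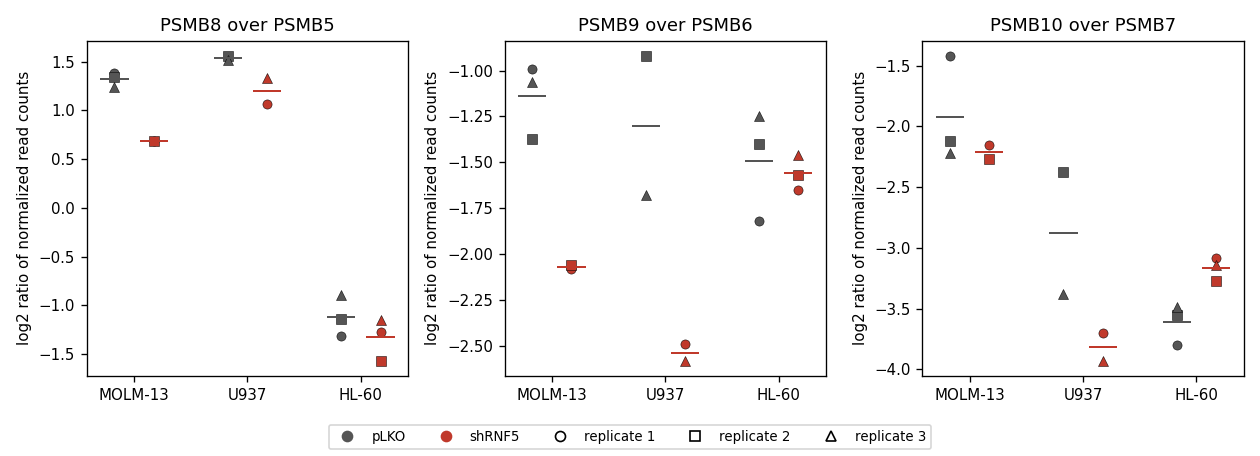
Log2 ratio of the normalized read counts of PSMB8 to PSMB5, PSMB9 to PSMB6 and PSMB10 to PSMB7 (y axis) in every library by line, pLKO in grey and shRNF5 in red, with horizontal bars at group means. The first ratio has a mean of 1.32 with pLKO and 0.69 with shRNF5 in MOLM-13 and lies between -1.57 and -0.89 in all HL-60 libraries.

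The control ratio of PSMB8 to PSMB5 was lowest in HL-60. The mean log2 ratio of PSMB8 to PSMB5 in pLKO cells was 1.32 ± 0.07 (SD, n = 3) in MOLM-13, 1.54 ± 0.03 (SD, n = 2) in U937 and -1.12 ± 0.22 (SD, n = 3) in HL-60, and no HL-60 library reached the others. The log2 ratio of PSMB9 to PSMB6 did not separate the lines, at -1.82 to -1.25 in HL-60 pLKO, -1.37 to -0.99 in MOLM-13 and -1.68 to -0.92 in U937. That of PSMB10 to PSMB7 was -3.8 to -3.49 in HL-60, close below the -3.38 of the lower U937 control. On a common scale set by median-of-ratios over 11054 genes, which is a description and carries no test, HL-60 pLKO held 0.544 times the PSMB8 of MOLM-13 and 2.94 times its PSMB5. PSMB10 in pLKO cells of U937 was exceeded 3.12 times by MOLM-13 and 1.71 times by HL-60.

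The promoters of PSMB8 and PSMB9 are shown because these genes fell in MOLM-13. RefSeq promoters on GRCh38.p14, from 250 bases before to 50 bases after a gene's start, were found as 50 sequences for 41 of the 47 genes. They were searched on both strands for GAAA, any 2 letters, GAAA (the core of interferon-stimulated response elements), for TGACNNNGC (the core of the antioxidant response element, read by NFE2L1 and NFE2L2), for CCAAT and for CCGGAAG (an ETS site). Only sequences that hold the marked motif are shown. Of the 4 promoter sequences of PSMB8, PSMB9 and PSMB10, 2 held the GAAA motif. The PSMB8 sequence shown is at chr6:32843998-32844297, reverse strand, and the capitals mark the GAAA motif, which lies on the opposite strand. The PSMB9 sequence is at chr6:32853942-32854241, forward strand, and the capitals mark TGACNNNGC, also on the opposite strand.
PSMB8: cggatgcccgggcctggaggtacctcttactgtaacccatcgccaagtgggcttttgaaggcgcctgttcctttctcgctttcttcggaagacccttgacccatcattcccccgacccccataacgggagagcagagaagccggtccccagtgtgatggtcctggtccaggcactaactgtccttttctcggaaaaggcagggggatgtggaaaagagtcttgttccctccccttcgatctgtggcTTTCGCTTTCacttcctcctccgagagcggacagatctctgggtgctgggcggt
PSMB9: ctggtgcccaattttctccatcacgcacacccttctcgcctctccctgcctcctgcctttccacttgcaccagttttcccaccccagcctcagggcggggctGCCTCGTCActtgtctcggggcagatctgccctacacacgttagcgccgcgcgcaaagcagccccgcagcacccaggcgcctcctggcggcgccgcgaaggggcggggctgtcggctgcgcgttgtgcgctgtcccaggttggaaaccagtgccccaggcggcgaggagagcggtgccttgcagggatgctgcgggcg
The GAAA motif was in 7 of the 50 promoters (14%), those of PSMA4, PSMB4, PSMB8, PSMB10, PSME1, PSME2 and PSMG4, and in 3.6% of all 35116 promoters of the same length. A match is a stretch of letters and not a shown site of binding.

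In U937, 10 genes rose, of which 6 were 19S non-ATPase subunits, 1 a 19S ATPase, 2 constitutive beta subunits and 1 an activator. Without the immunoproteasome, 10 of 44 genes rose and 0 fell, and the median log2 fold change was 0.49. All shRNF5 libraries lay above all pLKO libraries for 27 of the 47 genes (29% of all genes) and below for 3 (30.2%). PSMD3, a scaffold subunit of the 19S lid, was at 1169 and 1265 with pLKO and at 2631 and 2240 with shRNF5. This was the smallest p-value among the proteasome genes in U937, with a log2 fold change of 1.0 ± 0.24 (SE; limma adjusted p = 0.0392). PSMD12, another lid subunit, was at 1254 and 1677 against 3177 and 2736 (log2 fold change 1.02, adjusted p = 0.0421). PSMD1, the large scaffold of the 19S base that docks ubiquitin receptors, was at 1287 and 1904 against 4136 and 2739 (log2 fold change 1.1, adjusted p = 0.0497). In all of these the lowest shRNF5 value was above the highest control, and the PSMD1 shRNF5 libraries differed from each other by more than its controls did. PSMD2, the other base scaffold, was at 2359 and 2936 against 4919 and 4513 (log2 fold change 0.84, adjusted p = 0.0615). PSMD11, a lid subunit, was at 1478 and 1608 against 2928 and 2570 (log2 fold change 0.83, adjusted p = 0.0598). PSMD8, also of the lid, was at 1472 and 1923 against 2646 and 2919 (log2 fold change 0.72, adjusted p = 0.0948). PSMC4, an ATPase of the base, was at 1072 and 1186 against 1932 and 1738 (log2 fold change 0.7, adjusted p = 0.0956). The lid and base thus both held genes that rose.

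The beta subunits PSMB2 and PSMB7 rose in U937 as well. PSMB2, a non-catalytic subunit, was at 1415 and 2843 with pLKO and at 4299 and 4400 with shRNF5 (fold 2.17, limma adjusted p = 0.0595). PSMB7 was at 692 and 1249 against 1665 and 2061 (log2 fold change 0.99, adjusted p = 0.0751). For both, pLKO replicate 2 lay well below pLKO replicate 3. PSME3, which encodes PA28 gamma, the nuclear activator that opens the core without ubiquitin, was at 1004 and 1330 against 2357 and 1934 (log2 fold change 0.89, adjusted p = 0.0639). Members of the alpha ring were not called, although PSMA4 and PSMA5 were higher in both shRNF5 libraries. PSMA5 was at 661 and 1382 against 1670 and 1720 (log2 fold change 0.83, adjusted p = 0.14). PSMD4, a ubiquitin receptor of the cap, was at 3339 and 2837 against 3289 and 2642 with the constructs overlapping. The activator pair PSME1 and PSME2, which form PA28 alpha-beta, was at 1171 and 1654 against 1728 and 1692, and at 1024 and 1393 against 1068 and 1109, with no call for either.

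**Figure D4:**
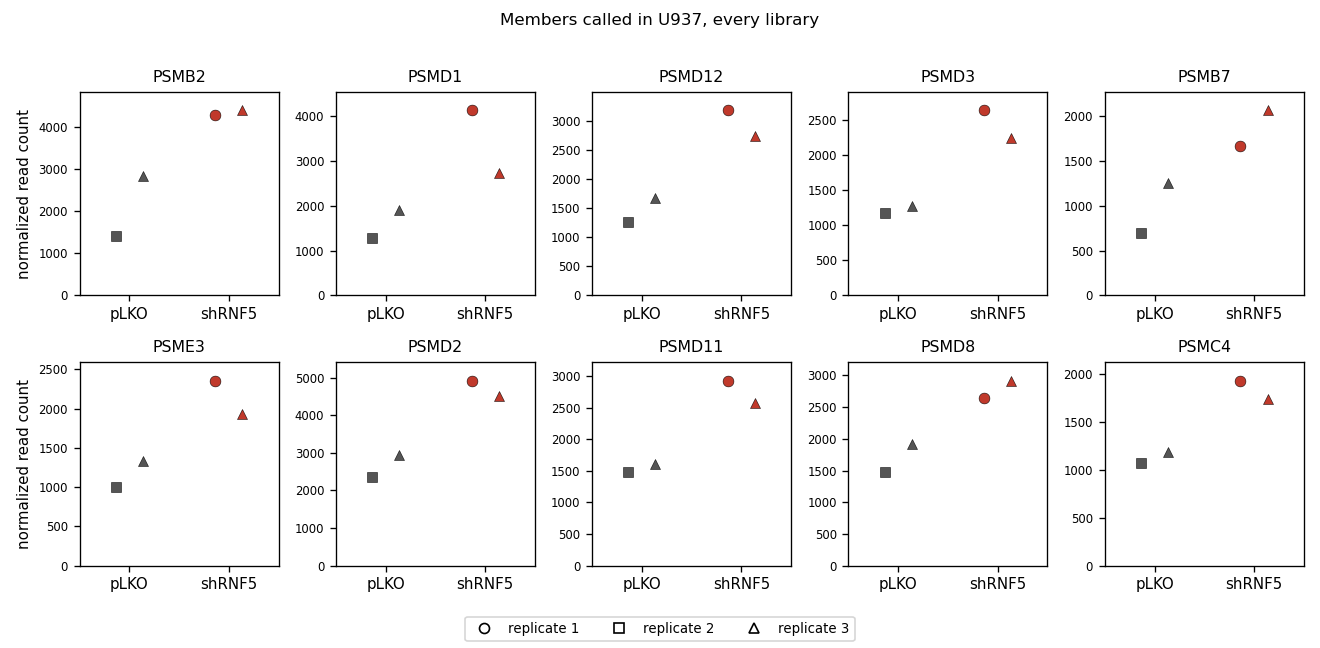
Normalized read count (y axis from 0) in every U937 library of the 10 proteasome genes called there, pLKO in grey and shRNF5 in red, with marker shape for the replicate number. Both shRNF5 libraries lie above both controls in each panel, and pLKO replicate 2 is the lower control in all 10, for example at 1415 for PSMB2 where replicate 3 is at 2843.

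The U937 calls rested on few libraries, and the controls differed from each other. The median deviation of the 47 genes from their group mean was -0.19 in pLKO replicate 2 and 0.19 in pLKO replicate 3, while over all genes it was 0.01 and -0.01. The deviations of all genes from their group mean correlated with transcript length at 0.283 in replicate 2 and at -0.283 in replicate 3. Without pLKO replicate 2, 0 proteasome genes were called and the median log2 fold change was 0.26. Without pLKO replicate 3, 16 rose and the median was 0.65. Without either shRNF5 library, 0 were called. With one limma fit over all 15 libraries, in which the lines share one estimate of the spread, 24 rose and 2 fell. The share of all genes called by that fit is not given here. With no mean-variance trend 0 were called. The part of the control difference in the U937 result was not tested.

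The promoters of PSMD3 and PSMD12 are shown because these genes rose in U937 and their promoters hold TGACNNNGC, marked in capitals. PSMD3 is at chr17:39980557-39980856, forward strand, with a match on each strand, and PSMD12 at chr17:67366528-67366827, reverse strand, with a match on its own strand.
PSMD3: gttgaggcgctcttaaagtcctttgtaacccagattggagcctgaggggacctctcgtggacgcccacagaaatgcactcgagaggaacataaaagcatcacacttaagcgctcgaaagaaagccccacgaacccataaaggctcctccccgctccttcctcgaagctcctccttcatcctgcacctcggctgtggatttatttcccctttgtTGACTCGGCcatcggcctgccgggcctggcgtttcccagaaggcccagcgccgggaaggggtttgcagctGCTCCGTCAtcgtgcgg
PSMD12: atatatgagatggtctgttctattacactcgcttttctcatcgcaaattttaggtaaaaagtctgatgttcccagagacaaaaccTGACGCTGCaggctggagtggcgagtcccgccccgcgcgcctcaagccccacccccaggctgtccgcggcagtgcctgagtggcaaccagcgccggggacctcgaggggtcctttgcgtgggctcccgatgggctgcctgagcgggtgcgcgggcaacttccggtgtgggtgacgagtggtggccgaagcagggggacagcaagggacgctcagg
Of the 50 proteasome promoters, 15 (30.0%) held TGACNNNGC, against 13.3% of all promoters. It was found for 4 of the 9 genes called in U937 that had a promoter sequence (PSMC4, PSMD1, PSMD3 and PSMD12) and for 11 of 32 that were not called. CCGGAAG was in 15 promoters (30.0%; 10.3% of all) and CCAAT in 19 (38.0%; 34.6% of all).

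In MOLM-13, the other 44 genes had 0 calls with limma, and 10 of them had an unadjusted p under 0.05. All shRNF5 libraries lay below all controls for 24 of the 47 genes (19.2% of all genes) and above for 1 (19.6%). That 1 gene was PSME4, the PA200 activator, which was at 2808, 3254 and 2997 with pLKO and 4168 and 3606 with shRNF5, without a call (log2 fold change 0.36, limma adjusted p = 0.256). No member of the alpha ring had a log2 fold change above 0. The ring's median was -0.43 and its range from -0.53 for PSMA3 to -0.13 for PSMA6. The constitutive beta ring had a median of -0.2, the ATPases -0.24, the non-ATPase subunits -0.12 and the 20S assembly factors -0.27. PSMG4, a chaperone of alpha-ring assembly, was at 703, 656 and 584 with pLKO and at 506 and 402 with shRNF5 (log2 fold change -0.52, adjusted p = 0.227). PSME1 was at 3385, 3746 and 3148 against 3462 and 3055 and PSME2 at 3809, 2692 and 2567 against 2416 and 2376, neither called. With limma library weights 7 of the 47 genes were called, all lower, and the share of all genes called with weights is not given here.

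In HL-60, calls went both ways, 3 genes rising and 4 falling, and none of the 20S ring subunits was called. PSMD4 was at 8978, 10699 and 8389 with pLKO and at 11648, 14355 and 17372 with shRNF5. Each shRNF5 library was above every control (log2 fold change 0.62 ± 0.17, SE; limma adjusted p = 0.0271). PSME1 was at 1280, 1829 and 1619 against 2205, 1854 and 2997, again without overlap (log2 fold change 0.56, adjusted p = 0.0559). PSME2, which pairs with PSME1 in the interferon-inducible activator, was at 1276, 1692 and 1421 against 1870, 1674 and 2381, where replicate 2 of shRNF5 fell between the controls (log2 fold change 0.43, adjusted p = 0.0798). Replicate 3 of shRNF5 had the largest value in each of these genes. Without it their fold changes were 0.47, 0.37 and 0.28, and 1 proteasome gene rose and 5 fell. The share of all genes called without that library is not given here. That library's all-gene deviations correlated with transcript length at -0.489.

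The genes that fell in HL-60 were PSME3, PSMG4, PSMD8 and PSMD6. PSME3 was at 4834, 4594 and 4315 with pLKO and at 3027, 3277 and 2655 with shRNF5. It had the smallest p-value of the proteasome genes in this line (log2 fold change -0.62 ± 0.12, SE; limma adjusted p = 0.00754). PSMG4 was at 720, 657 and 589 against 430, 470 and 417 (log2 fold change -0.57, adjusted p = 0.0162). PSMD8 was at 2266, 2737 and 2143 against 1467, 1695 and 1942 (log2 fold change -0.49, adjusted p = 0.0366). PSMD6, a lid subunit, was at 2569, 2604 and 2243 against 1790, 1936 and 1865 (log2 fold change -0.4, adjusted p = 0.0325). In all of them the highest shRNF5 value was below the lowest control. PSMD3 was below the controls in every shRNF5 library too, at 3298, 3627 and 2803 against 2350, 2505 and 2704, with an adjusted p of 0.0739 but a log2 fold change of -0.36 that did not reach the fold limit. Counts of genes whose libraries did not overlap were 8 above (19.9% of all genes) and 10 below (18.6%) among the 47. Without pLKO replicate 1, 1 gene rose and 3 fell. The share of all genes called without that control is not given here.

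**Figure D5:**
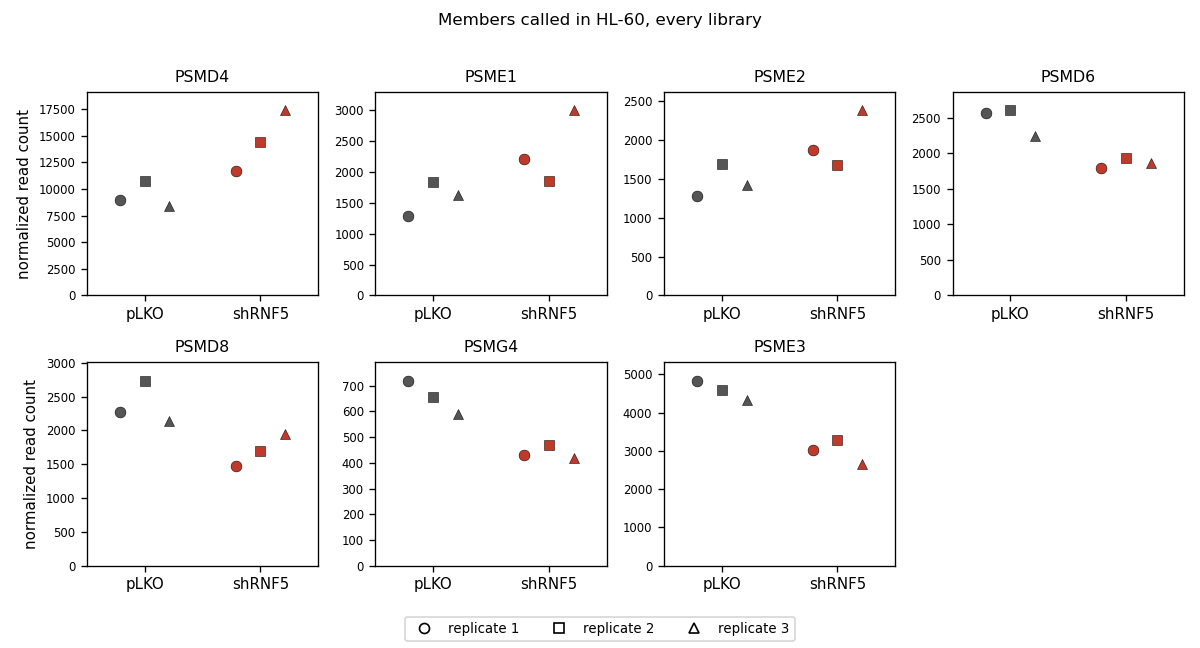
Normalized read count (y axis from 0) in every HL-60 library of the 7 proteasome genes called there, pLKO in grey and shRNF5 in red, with marker shape for the replicate number. PSMD4 reaches 17372 in shRNF5 replicate 3, and PSME3 lies at 2655 to 3277 with shRNF5 where the controls lie at 4315 to 4834.

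The response differed between U937 and the other lines for many proteasome genes. For 22 of 47 genes, MOLM-13 had a lower log2 fold change than U937 (8.48% of 11072 genes tested were lower) and for 0 higher (6.95%; 15.4% of all genes differed), by limma at an adjusted p under 0.1. The median difference was -0.67 over the 47 genes and -0.06 over all genes. The largest were PSME3 (difference -1.24, 95% interval -1.73 to -0.75, adjusted p = 0.00976), PSMD1 (-1.21, interval -1.84 to -0.57), PSMB2 (-1.12, interval -1.81 to -0.43), PSMA5 (-1.06, interval -1.76 to -0.35) and PSMC4 (-1.05, interval -1.48 to -0.62). In this fit the lines share one estimate of the spread. The standard error of the PSME3 difference was 0.23, below the 0.26 of the PSME3 fold change in U937 fitted alone. In MOLM-13, PSME3 was at 4500, 5154 and 4583 with pLKO and 3805 and 3607 with shRNF5. It thus moved the other way from U937, without a call. PSMD1 was at 4804, 5277 and 3604 against 4314 and 4078 in MOLM-13, and PSMB2 at 2546, 3590 and 3100 against 3184 and 2905. Both overlapped between constructs there. PSMC4 was at 2285, 2157 and 2221 against 1719 and 1764 in MOLM-13 and PSMA5 at 3172, 3572 and 2769 against 2917 and 2469. The differing genes included 9 of 11 non-ATPase subunits, 4 of 6 ATPases, 3 of 7 alpha subunits and 0 of the 3 immunoproteasome subunits. The count of 22 fell to 2 without U937 shRNF5 replicate 1, to 3 without MOLM-13 shRNF5 replicate 2, to 6 without U937 pLKO replicate 2, to 11 without MOLM-13 shRNF5 replicate 1 and to 12 without MOLM-13 pLKO replicate 2.

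Between U937 and HL-60, the fold change was higher in U937 for 20 genes (19.1% of all genes) and lower for 4 (18.1%), where 37.2% of all genes differed. The comparison shares the U937 libraries with the preceding one. The largest differences were PSME3 (1.51, 95% interval 1.04 to 1.97, limma adjusted p = 0.000599), PSMD3 (1.35, interval 0.92 to 1.79), PSMD8 (1.21, interval 0.73 to 1.69), PSMB2 (1.17, interval 0.51 to 1.83) and PSMB7 (1.17, interval 0.53 to 1.82). PSMB2 was at 3851, 3902 and 3627 with pLKO and 3487, 3435 and 4044 with shRNF5 in HL-60, with overlap. The 4 lower in U937 were PSMB8 (-0.63), PSMB9 (-0.73), PSMD4 (-0.68) and PSMD10 (-0.69). Between MOLM-13 and HL-60, 3 genes had a lower fold change in MOLM-13 (5.09% of all genes) and 0 a higher one (3.72%), where 8.82% of all genes differed. They were PSMB9 (difference -1.09, interval -1.74 to -0.44, adjusted p = 0.0585), PSMD4 (-0.97, interval -1.55 to -0.38, adjusted p = 0.0621) and PSMB8 (-0.86, interval -1.42 to -0.3, adjusted p = 0.0766). PSMD4 in MOLM-13 was at 7046, 4859 and 4486 with pLKO and 4086 and 4321 with shRNF5. With transcript length corrected, 0 genes were lower in the first-named line in either comparison, while 23 were higher in U937 than in HL-60 and 1 was higher in MOLM-13 than in HL-60. The MOLM-13 and HL-60 count was 0 without MOLM-13 pLKO replicate 1, either MOLM-13 shRNF5 library, HL-60 pLKO replicate 1 or 3, or HL-60 shRNF5 replicate 3, and it was 9 without MOLM-13 pLKO replicate 3 and 6 without either U937 pLKO library. The U937 and HL-60 count was 14 without U937 pLKO replicate 2, 13 without U937 shRNF5 replicate 1 and 14 without HL-60 pLKO replicate 1.

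Control levels of the proteasome genes varied between lines on the common scale, again with no test. The median ratio over the 47 genes was 1.3 for HL-60 over MOLM-13, 1.59 for HL-60 over U937 and 1.27 for MOLM-13 over U937. Single subunits departed from this. HL-60 held 3.45 times the PSMB4 and 2.72 times the PSMD4 of MOLM-13, and 4.37 and 3.3 times those of U937. PSMA1 was lowest in HL-60, at 0.421 times MOLM-13, and PSMD5, a 19S chaperone, was at 0.48 times MOLM-13 and 0.52 times U937. PSMD10, another 19S chaperone also known as gankyrin, was highest in U937, where MOLM-13 held 0.402 times its value. PSME3 was lowest in U937, which MOLM-13 exceeded 2.79 times and HL-60 4.28 times.

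Genes that act beside the proteasome were counted from fixed lists. Of 20 symbols listed for proteasome-associated proteins, 16 were tested. The list also held SEM1 and ECPAS, newer symbols of SHFM1 and KIAA0368, which were tested. PSMA8 and PSMB11 were at 0 in every library. UBE3C rose in all 3 lines, UBQLN4, a ubiquitin shuttle, rose in U937, and none was called lower. Calls made up 6.25% of the tested list for MOLM-13, 12.5% for U937 and 6.25% for HL-60. The matching shares of all genes were 2.04%, 15.7% and 25.9%, so only MOLM-13 lay above its background, with 1 gene. For HL-60, 2 genes of the list were lower at the adjusted p limit but did not reach the fold limit. UBE3C, a ubiquitin ligase that extends chains on substrates stalled at the proteasome, was at 2297, 2925 and 2167 against 5385 and 4939 in MOLM-13 and at 1068 and 1029 against 3852 and 2588 in U937. In HL-60 it was at 1774, 1410 and 1576 against 2754, 1801 and 2250. No library overlapped between constructs, and the log2 fold changes were 1.08, 1.59 and 0.5 (limma adjusted p = 0.0508, 0.0179 and 0.0519). Of 14 regulators of proteasome gene transcription, 0 were called in MOLM-13 (0 with an unadjusted p under 0.05), 1 rose in U937 (6.92% of all genes rose), and 2 rose and 4 fell in HL-60 (13.6% and 12.3% of all genes). These were named after their values were seen. The U937 gene was VCP, the ATPase that extracts proteins from the endoplasmic reticulum (log2 fold change 0.85). MAFG and SYVN1 rose in HL-60, while DDI2, the protease that activates NFE2L1 (-0.82), fell with BACH1, BTRC and MAFF. NFE2L1, the factor that induces proteasome genes when the proteasome is impaired, was at 2162 and 1373 against 3498 and 2326 in U937, with an adjusted p of 0.149. NFE2L1 had a log2 fold change of 0.25 (MOLM-13), 0.73 (U937) and -0.03 (HL-60), and that of NFE2L2, which drives the oxidative stress response, was 0.16, -0.13 and -0.01, with no call.

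Of 10 markers of proteotoxic or oxidative stress tested, 6 rose in U937 and 8 in HL-60 and none fell, with medians of 1.06 and 0.82, where 6.92% and 13.6% of all genes rose. Of the 9 tested in MOLM-13, 0 were called with limma and 1 had an unadjusted p under 0.05. HMOX1, heme oxygenase 1, was at 68 and 105 against 1563 and 1872 in U937, and at 11, 3 and 4 against 47, 58 and 77 in HL-60. This put every shRNF5 library well above the controls (log2 fold change 4.32 and 3.28). In MOLM-13 it was at 103, 39 and 56 against 92 and 179, with overlap. NQO1, GCLM and HSPA1B also rose in both U937 (1.35, 1.02 and 1.09) and HL-60 (1.17, 0.53 and 0.8). Of 6 genes of ubiquitin and its activation, 0 rose and 1 fell in U937, and 3 rose and 1 fell in HL-60. Calls thus made up 16.7% of this list for U937, close to the 15.7% of all genes, and 66.7% for HL-60, against 25.9%. The U937 gene was RPS27A, a ubiquitin and ribosomal fusion gene, which fell by 0.83 in log2 (limma adjusted p = 0.0753). RPS27A rose in HL-60 (0.59, adjusted p = 0.0535), as did the ubiquitin gene UBB, while UBA6, an activating enzyme, fell there. No gene of this list was called in MOLM-13 (0 with an unadjusted p under 0.05). Of 9 interferon-linked regulators and peptide transport genes in MOLM-13 and U937 and 8 in HL-60, 0 were called in MOLM-13 (0 with an unadjusted p under 0.05), 1 fell in U937 (8.74% of all genes fell), and 1 rose and 2 fell in HL-60 (13.6% and 12.3% of all genes). STAT2, a transducer of interferon signals, fell in U937 (-1.32) and rose in HL-60 (0.77). The HL-60 genes that fell were NLRC5, the transactivator of MHC class I genes (-0.76), and TAP2, a subunit of the peptide transporter (-0.8). Whether these genes bear on the proteasome genes was not tested.

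Some values are uncertain because genes overlap. Exons of PSMA1, PSMA2, PSMA6, PSMB10 and PSMD9 lie in part (14.1% to 39.4% of their bases) under another coding gene of the same strand, and whether reads there were counted is not stated. For PSMC1, 76.1% of exon bases lie under a gene of the opposite strand, for PSMD7 31.2% and for PSMA2, PSMB8, PSMC5 and PSMG4 12.4% to 17.3%, and the strand setting of the counting is not given in the sources used here.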

How the data were processed

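Libraries were grouped by the line, construct and replicate number of the labels. Upstream, the authors used STAR for alignment (hg19), featureCounts of Subread for gene counts, and SARTools with edgeR for normalization within each line. The deposited values are a score: read counts scaled by a factor per library and rounded, with genes that failed the authors' filter at 0. Tests had been planned for raw counts. Since whole reads could not be recovered for all libraries, no count model was fitted.

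Genes above 0 in any library of a line were fitted with limma 3.58.1 in R 4.3.3 on log2(value + 1) with a mean-variance trend. Differences between lines came from one fit over 15 libraries. Depth was estimated from the spacing of low values and limits low genes most. Gene positions and lengths came from GENCODE on GRCh37.

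The genes, lists and tests were chosen with earlier results of these data known. Values per library are given for PSMB5 to PSMB10, PSME1, PSME2, called genes (at most 8 per line) and genes whose response differed most (at most 5 per pair). Outside the proteasome, RNF5, NFE2L1, NFE2L2, UBE3C and listed genes called in 2 or more lines are named. PSMA4, PSMD3 in HL-60, PSME4, PSMG4 in MOLM-13, TAP1 and listed genes called in 1 line were added after their values were seen. Alternatives covered pseudocounts, scaling, filters, thresholds, library weights, blocks, transcript length and omission of each library. Values of 2 listed genes are not reported here.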

Additional observations from a re-analysis of the deposited data

Results flagged for a closer look

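The results below are listed because the response to RNF5 knockdown differed between lines by the test of the difference itself. That test was limma at an adjusted p-value under 0.1. Between MOLM-13 and U937, 22 proteasome genes differed, among them PSME3 (log2 difference -1.24), PSMD1 (-1.21), PSMB2 (-1.12), PSMA5 (-1.06), PSMC4 (-1.05) and PSMB7 (-0.88). Between MOLM-13 and HL-60, 3 differed: PSMB9 (-1.09), PSMD4 (-0.97) and PSMB8 (-0.86). Between U937 and HL-60, 24 differed, among them PSME3 (1.51), PSMD3 (1.35), PSMD8 (1.21), PSMB2 (1.17), PSMB7 (1.17), PSMB9 (-0.73) and PSMB8 (-0.63). With transcript length corrected, the 3 genes that differed between MOLM-13 and HL-60 no longer did, nor did PSMB8 and PSMB9 between U937 and HL-60. The count of 3 was 0 on leaving out any 1 of 6 libraries. PSME3 and PSMD8 were called in opposite directions in U937 and HL-60. Groups of 2 or 3 libraries are too small for a test of single outlying libraries. The cause of these differences was not tested.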

How the results depend on the processing

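The median fold change of the 47 genes kept its direction under all settings in U937 and MOLM-13, and in HL-60 it was -0.03 without shRNF5 replicate 3. Omitting each library gave medians from -0.27 to -0.18 in MOLM-13, 0.26 to 0.65 in U937 and -0.03 to 0.14 in HL-60, and 0 to 2, 0 to 16 and 4 to 7 genes called. Genes whose response differed then numbered 2 to 28 for MOLM-13 and U937, 0 to 9 for MOLM-13 and HL-60 and 13 to 28 for U937 and HL-60. With no mean-variance trend, 0 genes were called in MOLM-13 and 0 in U937. At an adjusted p under 0.05, 0 were called in MOLM-13 and 3 in U937, and the response of 0 genes differed for MOLM-13 against HL-60 and of 13 for U937 against HL-60. Library weights gave 7 calls in MOLM-13, and one fit over all libraries gave 26 in U937. Shares of all genes called under these settings are not given here. With the transcript length correction, the 3 genes that differed between MOLM-13 and HL-60 were lost and 1 other gene differed, higher in MOLM-13. The cause was not tested. The log2 ratio differences moved with single libraries. PSMB10 to PSMB7 was at -0.04 without MOLM-13 pLKO replicate 1, and in U937 at -0.44 without pLKO replicate 2 and -1.44 without pLKO replicate 3. PSMB8 to PSMB5 ran from -0.47 to -0.21 in U937 and from -0.32 to -0.09 in HL-60, and PSMB9 to PSMB6 from -1.62 to -0.86 in U937 and from -0.24 to 0.05 in HL-60.

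Uncalled genes near 0 changed sign. With the length correction PSMB5 was at 0.05 and PSME1 at 0.09 in MOLM-13, PSMB5 at 0.02 and PSME2 at 0.09 in U937 and PSMB6 at -0.09 in HL-60. Omitting libraries gave -0.02 to 0.18 for PSMB7 and -0.16 to 0.02 for PSME1 in MOLM-13, -0.02 to 0.13 for PSMB10 and -0.36 to 0.09 for PSME2 in U937, and -0.12 to 0.17 for PSMB6, -0.09 to 0.26 for PSMB8 and -0.24 to 0.11 for PSMB9 in HL-60.

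The replicate numbers were not shown to pair the libraries. Deviations of same-numbered libraries correlated at -0.173 and -0.53 in MOLM-13, numbered by the titles, and at 0.505, 0.156 and -0.109 in HL-60. Fits with a replicate block called 3 genes in MOLM-13 and 7 in HL-60. With the MOLM-13 shRNF5 libraries numbered as in their deposited names, the same-numbered deviations correlated at 0.53 and 0.281. With only 2 shRNF5 libraries their deviations mirror each other, so the sign in MOLM-13 depends on the numbering. The block with this numbering gave 4 calls and PSMB7 at -0.02. No paired analysis was possible in U937 because the constructs share 1 number. edgeR and DESeq2 were not run because the values are not counts. Depth was not given with the values and could only be estimated.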

Other observations

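PSMB9 and TAP1, a subunit of the transporter that carries peptides into the endoplasmic reticulum, are transcribed in opposite directions. Their starts were 488 bases apart on GRCh38 (RefSeq, chromosome 6), with the first of 2 TAP1 promoters used. That distance depends on the annotation, since the GENCODE span of PSMB9 on GRCh37 (32811913 to 32827628) contains that of TAP1 (32812986 to 32821593). TAP1 was chosen after its values were seen. While PSMB9 fell in MOLM-13, TAP1 was at 923, 717 and 912 with pLKO and at 773 and 1053 with shRNF5, with the constructs overlapping (log2 fold change 0.09, 95% interval -0.36 to 0.55, limma adjusted p = 0.838). In U937 TAP1 was at 1035 and 778 against 1037 and 920, a log2 fold change of 0.12. The difference between the responses of the 2 genes was not tested.

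PSMB4 (chromosome 1, 151372036 to 151374413, GRCh37) and PSMD4 (chromosome 1, 151227185 to 151239955), which lie near each other, were the proteasome genes with the highest HL-60 control values on the scale of that line, at 13109 to 16023 and 8389 to 10699, in units that are not corrected for transcript length. They were at 13982 to 21088 and 11648 to 17372 with shRNF5. PSMD4 was called and PSMB4 was not (log2 fold change 0.23, limma adjusted p = 0.367).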
